A study of Rattus norvegicus with 7 samples.

Results

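Immediate early genes are transcribed within minutes of a growth factor, serum or stress stimulus, from transcription factors already present in the cell, and their mRNAs are short-lived. Many encode transcription factors, such as the AP-1, EGR and NR4A proteins, which go on to switch on secondary response genes. Others encode inhibitors that close the loop, among them the MAP kinase phosphatases of the DUSP family, the Sprouty proteins and ZFP36, which marks AU-rich mRNAs for decay. In kidney tubule cells the same genes are known to be induced by serum, growth factors and injury.

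A list of 38 such genes was followed on 7 Affymetrix rat arrays, each hybridised with RNA from 1 independent culture of NRK-52E, a rat kidney cell line labelled as tubular epithelium. Every probe set whose platform annotation gives 1 symbol from the list was taken. The arrays carry 66 of them among 31042 probe sets that are not controls, for 37 of the 38 genes and of 14217 gene symbols in all. Btg2 has no probe set under its symbol and was not analysed here. Of the 66, 57 passed the filter on low signals and were tested, at least 1 for each of the 37 genes. The 9 others ran from 1.18 to 80.0 signal units on single arrays and are not described further. They are second probe sets of Fos, Jund, Ier5, Crem, Klf2 and Srf.

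The groups are siRNA Adamts16-3488 (2 cultures), siRNA Adamts16-2600 (2 cultures) and a scrambled control siRNA (3 cultures). Both named siRNAs were directed at Adamts16, a secreted metalloprotease, with different sequences. All 7 cultures were grown with 10% serum, seeded at 20% confluence, lipofected with 100 pmol of siRNA per ml and harvested after 48 h, so the genes were read in serum long after transfection, and the labels name no separate stimulus. No untransfected culture was among the samples analysed here. The antisense strands, as the labels give them and without their 3′ overhangs, are shown with bases 2 to 8, the seed through which an siRNA can also touch other mRNAs, in capitals. They are printed because the 2 targeting siRNAs gave different values for the genes described here and share no seed. Whether the seeds have a part in those values was not tested.
Adamts16-3488: tTTCCGGAgacgtacttct
Adamts16-2600: tTGCGCACagaaatatagg
Scrambled control: aTTACCGAgcacattggagg

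Each probe set has 1 signal per array, in arbitrary units. Each array had a trimmed mean of 500.1 to 500.2, so the arrays had been scaled to each other, and median signals were 126 to 139. The targeted mRNA could not serve as a check, since the Adamts16 probe set lay under the filter on low signals, at 12.1 and 40.4 with siRNA 3488, 21.4 and 2.42 with siRNA 2600, against 8.68, 7.18 and 18.9 in the controls. Of 15 kidney tubule markers, 14 were on the arrays and 4 passed the filter. Krt8 was clearly measured, at 5963 ± 277 in the controls (SD, n = 3). Aqp1, Krt19 and Lrp2 also passed, with control means of 315, 105 and 91.9. Pax8, Slc34a1, Umod, Slc5a2, Pax2, Krt18, Cubn, Cdh16, Epcam and Cdh1 were under the filter. Of 13 fibroblast markers, 8 passed it, and Fap, Dcn, Thy1, Pdgfra and Lum did not. Summed fibroblast marker signals were 75644 to 84407 with siRNA 3488, 62243 to 67442 with siRNA 2600 and 58410 to 62300 in the controls. The brightest of these markers, Col3a1, Mfap5 and Vim, lay within the brightest 1% of probe sets described below. Over the 8 markers, siRNA 3488 gave a median log2 change against the control of 0.37 on the scaling as deposited and of 0.04 with quantile normalization. Summed tubule marker signals were 7384 to 7987 with siRNA 3488, 6626 to 6662 with siRNA 2600 and 6338 to 7007 in the controls. The part of these shifts in the results below was not tested. In RNA from whole cultures, fewer cells that express a gene and less of its mRNA per cell cannot be told apart.

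By the brightest probe set of each gene, 10 of 37 response genes were called lower with siRNA 3488 than with siRNA 2600 and 1, Dusp1, higher, while 9 of the 37 had a difference above 0. All probe sets called lower read 0.531 to 0.819 times the siRNA 2600 signal. The 10 genes were the transcription factors Egr1, Egr2, Nr4a1, Nr4a2, Junb and Klf10, the mRNA decay factor Zfp36, the early response gene Ier2, the survival gene Mcl1 and the phosphatase Dusp5. A probe set was called at a limma p under 0.05 after Benjamini-Hochberg adjustment over all 18625 tested probe sets. Of the 57 member probe sets, 13 in 11 genes were called between the 2 siRNAs, or 22.8%, against 6.01% of all tested probe sets. Of these, 12 were lower with siRNA 3488 (21.1%, against 3.17% of all) and 1 was higher (1.75%, against 2.84%). At an unadjusted p under 0.05 there were 23 (40.4%, against 23.7%). With 1 probe set per gene, the brightest, the median log2 difference of the 37 genes was -0.27, against -0.02 for the 10019 genes tested. The members were chosen with earlier results of these arrays known, so the share and median describe the list and are not independent support.

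Both siRNA 3488 arrays lay below both siRNA 2600 arrays for 29 of the 57 probe sets (50.9%, against 27.7% of all tested), and above both for 3 (5.26%, against 21.9%). With siRNA 2600, 21 of the 57 lay above all 3 controls (36.8%, against 14.4% of all) and 4 below them (7.02%, against 19.6%). With siRNA 3488, 21 lay below all controls (36.8%, against 31.1%) and 8 above them (14%, against 19.2%). These 2 sets of counts share the 3 control arrays.

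**Figure D1:**
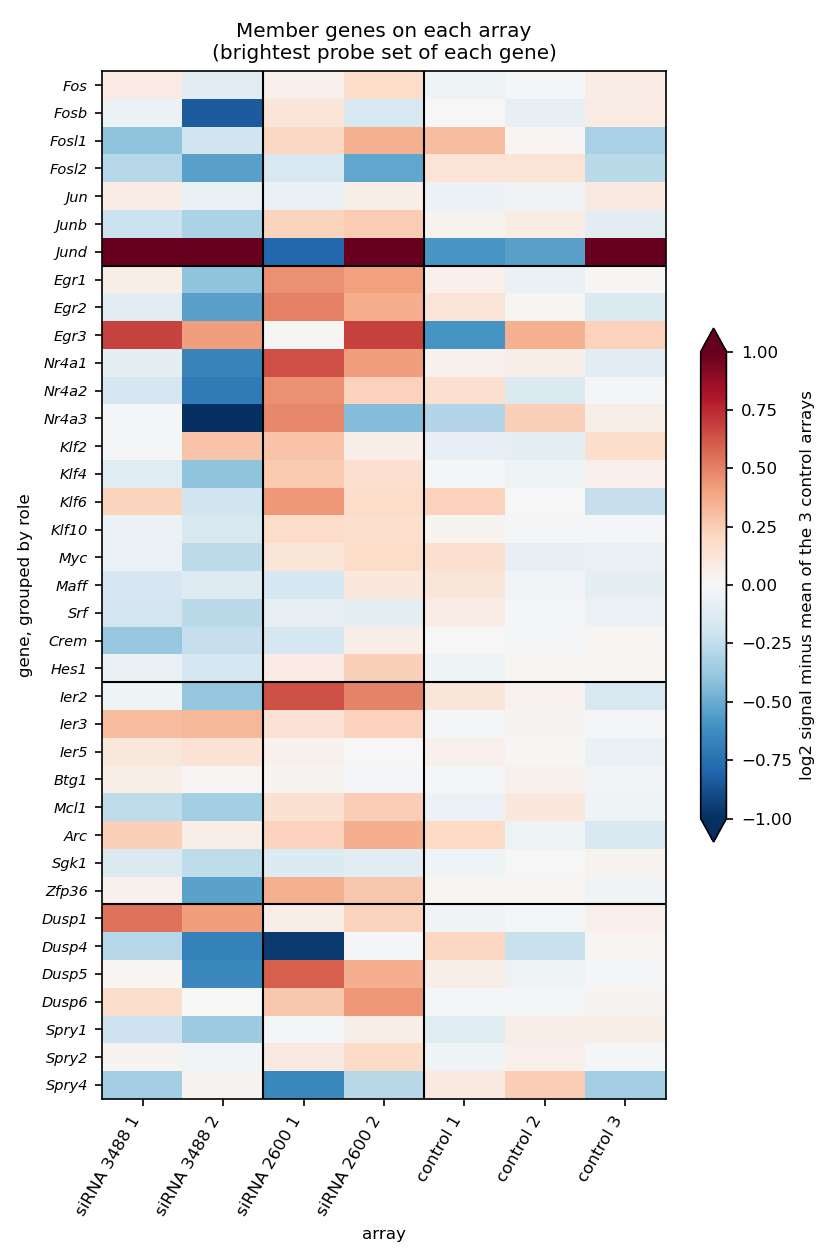
Each cell is the log2 signal of 1 gene (brightest probe set) on 1 array minus the mean of the 3 control arrays, with genes down the page by role and the 7 arrays across. Red is above and blue below the control mean, and colours stop at 1 log2 unit, which Jund and Nr4a3 exceed. Most genes are bluer in the siRNA 3488 columns, above all in array 2, than in the siRNA 2600 columns.

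The promoters of 6 of the genes with a probe set called lower with siRNA 3488 than with siRNA 2600 are shown, Dusp1 among them although its brighter probe set was called higher, because they carry CArG boxes or CREs, elements known for their part in the induction of early genes by serum and by cAMP. The CArG box binds serum response factor, the protein encoded by Srf, and the cAMP response element (CRE, TGACGTCA) binds CREB family factors. Each stretch runs from 150 bases before to 10 bases after the annotated start of transcription, from RefSeq on GRCr8, 5′ to 3′ on the strand of the gene. Capitals mark CArG boxes in Egr1, Egr2, Zfp36 and Dusp5, and CREs in Ier2 and Dusp1. The stretches lie at chr18:26736928-26737087 (plus strand) for Egr1, chr20:21054432-21054591 (minus) for Egr2, chr1:92799099-92799258 (minus) for Zfp36, chr1:262543624-262543783 (plus) for Dusp5, chr19:40399223-40399382 (plus) for Ier2 and chr10:17184703-17184862 (plus) for Dusp1.
Egr1: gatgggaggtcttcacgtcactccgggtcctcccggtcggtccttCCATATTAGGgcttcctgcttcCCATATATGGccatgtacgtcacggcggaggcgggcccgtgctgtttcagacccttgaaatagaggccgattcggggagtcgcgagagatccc
Egr2: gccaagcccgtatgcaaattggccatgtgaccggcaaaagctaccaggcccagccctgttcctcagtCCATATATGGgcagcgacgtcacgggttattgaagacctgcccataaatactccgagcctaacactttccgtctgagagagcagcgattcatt
Zfp36: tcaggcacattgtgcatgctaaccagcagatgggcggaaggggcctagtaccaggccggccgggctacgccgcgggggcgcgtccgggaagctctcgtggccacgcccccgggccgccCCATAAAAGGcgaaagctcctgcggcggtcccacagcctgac
Dusp5: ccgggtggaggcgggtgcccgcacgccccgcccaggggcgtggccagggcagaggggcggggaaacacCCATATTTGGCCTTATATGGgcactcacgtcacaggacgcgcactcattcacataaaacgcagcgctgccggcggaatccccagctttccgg
Ier2: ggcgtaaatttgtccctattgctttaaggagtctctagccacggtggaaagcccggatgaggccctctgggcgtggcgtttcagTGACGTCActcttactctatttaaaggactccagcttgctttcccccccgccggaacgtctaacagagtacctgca
Dusp1: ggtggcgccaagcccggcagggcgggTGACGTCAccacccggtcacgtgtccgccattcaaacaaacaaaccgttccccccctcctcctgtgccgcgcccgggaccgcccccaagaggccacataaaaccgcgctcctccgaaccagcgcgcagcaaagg

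Motifs were searched on both strands of each 300-base promoter entry, 250 bases before to 50 after the start. A member gene counts if any of its entries holds the motif, whereas the share of all promoters counts single entries. A gene with several entries, such as Crem, thus has more chances. RefSeq entries were found for 28 of the 38 genes, 10 of them among the 11 genes with a probe set called lower. Klf10 and 9 other members had no entry. A CArG box was found in 4 of the 10 (Egr1, Egr2, Zfp36 and Dusp5), in 2 of the 18 other members (Klf6 and Srf) and in 1.64% of all 33469 promoters. The full CRE was found in 2 of the 10 (Ier2 and Dusp1), in 4 of the 18 others (Btg2, Crem, Jund and Maff) and in 1.83% of all promoters. Its half-site TGACG, which every full CRE contains, was found in 9 of the 10, in 7 of the 18 and in 21.2% of all. The exception was Zfp36. The EGR site GCGNGGGCG was found in 3 of the 10, in 7 of the 18 and in 4.98% of all, and the AP-1 site TGANTCA in 0 of the 10, in 1 of the 18 and in 7.33% of all. Btg2, counted among the 18, had no probe set and was not measured. It holds the full CRE, the half-site and the EGR site. These matches describe letters in a window and say nothing of occupancy.

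**Figure D2:**
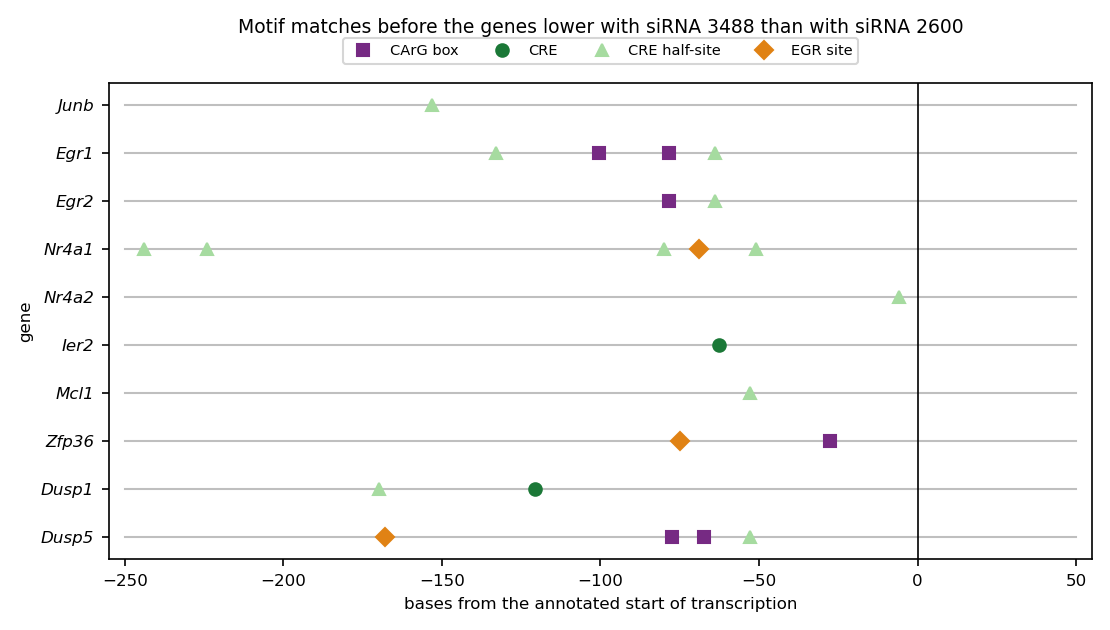
Positions of motif matches in the 300 bases around the start of transcription (position 0) of the 10 genes with a promoter entry and a probe set lower with siRNA 3488 than with siRNA 2600. The x axis is in bases from the start and each symbol is 1 match. The CArG boxes of Egr1, Egr2, Zfp36 and Dusp5 lie between positions -105 and -23, and a half-site inside a full CRE is not drawn again.

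The AP-1 transcription factor is a dimer of a FOS and a JUN protein, and its subunits did not move as 1 block. Junb, which encodes a JUN subunit, had 2906 and 2701 units with siRNA 3488, against 3936 and 4012 with siRNA 2600 and 3451, 3538 and 3128 in the controls. The 3 groups did not overlap, with siRNA 3488 lowest and siRNA 2600 highest. The log2 difference was -0.50 ± 0.08 (SE) between the siRNAs, at a limma adjusted p of 0.0115, and -0.27 ± 0.07 between siRNA 3488 and the control, at 0.032. With median centring the change against the control was -0.17 and not called, and it also lost its call without siRNA 3488 array 2 (-0.21), control 1 (-0.25) or control 2 (-0.23).

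Fos and Jun, the archetypal members, were not called in any comparison on the scaling as deposited. Fos had 10708 and 9375 units with siRNA 3488, 10491 and 11475 with siRNA 2600, against 9738, 10001 and 10618 in the controls. Its groups overlapped, and its log2 difference between the siRNAs was -0.13, with a 95% interval from -0.32 to 0.05. Jun, read by its brightest of 3 probe sets, had 5243 and 4732 units with siRNA 3488, 4725 and 5199 with siRNA 2600, against 4782, 4872 and 5311 in the controls. Its difference between the siRNAs was 0.01, with an interval from -0.18 to 0.19. With quantile normalization Fos, though not Jun, was called lower with siRNA 3488 in both comparisons. A p that misses the threshold does not show that the groups were alike.

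Fosb was low on 1 array only. It had 1575 and 924 units with siRNA 3488, against 1789 and 1473 with siRNA 2600 and 1645, 1552 and 1740 in the controls, and it was not called. Jund, a constitutively made JUN subunit, was split within groups, at 6879 and 8292 units with siRNA 3488, 1738 and 7415 with siRNA 2600, against 1995, 2052 and 6534 in the controls. Its arrays fell into values of 2052 or less and values of 6534 or more that cut across siRNA 2600 and the controls, and it was not called. The brightest probe sets of Fosl1 and Fosl2, which encode further FOS subunits, had log2 differences between the siRNAs of -0.58 and -0.07, neither called.

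The EGR zinc finger factors and the NR4A orphan nuclear receptors held several of the larger differences between the siRNAs. Egr1 had 6405 and 4623 units with siRNA 3488, against 8398 and 8128 with siRNA 2600 and 6341, 5826 and 6166 in the controls. Both siRNA 2600 arrays lay above every other array, while siRNA 3488 lay on both sides of the controls. The log2 difference between the siRNAs was -0.60 ± 0.12, at a limma adjusted p of 0.0255, and was -0.37 and not called without siRNA 3488 array 2.

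Egr2 had 1264 and 935 units with siRNA 3488, against 1937 and 1751 with siRNA 2600 and 1490, 1379 and 1235 in the controls, a log2 difference between the siRNAs of -0.76 ± 0.14 (limma adjusted p = 0.0172). Again siRNA 2600 stood above all controls, and siRNA 3488 array 1 lay within them. The dimmer Egr2 probe set, at 95.9 to 170 units over the 7 arrays, showed a difference of 0.01 and was not called. Egr3, which belongs to the same family, had 64.1 to 155 units over the arrays and was not called.

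Nr4a1, which encodes NUR77, gave the largest called difference between the siRNAs. It had 2485 and 1673 units with siRNA 3488, against 4152 and 3553 with siRNA 2600 and 2739, 2770 and 2470 in the controls. The log2 difference was -0.91 ± 0.15 between the siRNAs, at a limma adjusted p of 0.0145, with -0.38 against the control for siRNA 3488 and 0.53 for siRNA 2600, neither of those called.

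Nr4a2, which encodes NURR1, had 221 and 152 units with siRNA 3488, against 341 and 292 with siRNA 2600 and 277, 224 and 247 in the controls. The 3 groups did not overlap, and the log2 difference between the siRNAs was -0.79 ± 0.20 (limma adjusted p = 0.0489). This call lay close to the threshold and was lost in 12 of 17 alternatives. Among them were quantile normalization, median centring and cyclic loess, at -0.73 to -0.78. No filter, no intensity trend, the arrays of the compared groups alone and the loss of any 1 control also removed it. Without siRNA 3488 array 2 the Nr4a2 difference was -0.52. Its second probe set had a like difference of -0.83 but a standard error of 0.40, and was not called. Nr4a3, the remaining family member, had differences of -0.78, -1.26 and -0.43 in its 3 probe sets, none called. On its brightest probe set siRNA 3488 array 2 stood alone at 133 units, against 278 to 521 on the other 6 arrays.

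Among the Krüppel-like factors, Klf10, a gene induced early by TGF-beta, was called. It had 5519 and 5122 units with siRNA 3488, against 6519 and 6458 with siRNA 2600 and 5853, 5675 and 5684 in the controls, a small log2 difference between the siRNAs of -0.29 ± 0.06 (limma adjusted p = 0.0344). Its 3 groups did not overlap. The call was lost in 10 of 18 alternatives, among them median centring, no filter, no intensity trend and the loss of any 1 control. Over the alternatives the Klf10 difference was -0.40 to -0.23. Klf4 had a log2 difference of -0.48 and Klf6 one of -0.29, neither called, and Klf2 one of -0.04.

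Hes1, a transcriptional repressor downstream of Notch, lay just outside the threshold, at -0.28 ± 0.07 and a limma adjusted p of 0.0502. Of the other transcription factors, Myc differed by -0.31, Crem by -0.25, Srf by -0.13 and Maff by -0.11 on the log2 scale, none called. Srf itself, whose protein binds CArG boxes, had 1551 and 1467 units with siRNA 3488, 1664 and 1646 with siRNA 2600, against 1862, 1739 and 1697 in the controls on its brightest probe set. All 4 siRNA arrays were under the 3 controls, with a log2 change of -0.23 for siRNA 3488 against the control at a limma adjusted p of 0.0521, just outside the threshold. That change was called under some alternatives, such as the upper 40% of probe sets, the replicate block and 1 probe set per gene. The arrays of the compared groups alone also gave the call. Srf was not called under quantile normalization, median centring, cyclic loess, no filter, the offset of 32 or no intensity trend. It was also not called without any 1 control. In the same comparison, Crem and Sgk1 were called as well with 1 probe set per gene.

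Ier2, an early response gene of the nucleus, was the single member called with siRNA 2600 against the control. It had 3997 and 3626 units with siRNA 2600 and 2795, 2637 and 2300 in the controls, and 2500 and 1961 with siRNA 3488. The siRNA 2600 arrays stood clear of the other 5. Its log2 change with siRNA 2600 was 0.57 ± 0.11 (limma adjusted p = 0.0451), and its difference between siRNA 3488 and siRNA 2600 was -0.78 ± 0.12 (adjusted p = 0.0121).

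Mcl1 encodes a short-lived BCL2 family protein that protects cells from apoptosis, and both its probe sets were called. The brighter had 5921 and 5589 units with siRNA 3488, against 7839 and 8376 with siRNA 2600 and 6776, 7612 and 6842 in the controls, with no overlap among the 3 groups. The other had 1302 and 1205 with siRNA 3488, against 1662 and 1775 with siRNA 2600 and 1793, 1717 and 1647 in the controls, where siRNA 2600 and the controls overlapped. The differences between the siRNAs were -0.49 and -0.46 on the log2 scale, at limma adjusted p of 0.0121 and 0.016. Against the control, Mcl1 fell with siRNA 3488 by 0.30 and 0.46 on the log2 scale, at adjusted p of 0.0208 and 0.00562. The brighter probe set had a change of -0.20 with median centring, where its call was lost, and -0.51 with quantile normalization. Without siRNA 3488 array 2 neither was called (-0.26 and -0.40), and the brighter one was not called without control 1 (-0.33) or control 2 (-0.24).

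Zfp36 encodes tristetraprolin, which speeds the decay of early response mRNAs, including its own. It had 3038 and 2038 units with siRNA 3488, against 3786 and 3566 with siRNA 2600 and 2994, 2989 and 2881 in the controls. The whole shortfall of siRNA 3488 against the control lay in array 2, since array 1 was above all 3 controls. The log2 difference between the siRNAs was -0.56 ± 0.14 (limma adjusted p = 0.0474). It was -0.27 without siRNA 3488 array 2 and -0.85 without array 1, and the call was lost in 11 of 18 alternatives, among them quantile normalization (-0.58) and cyclic loess (-0.61).

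Ier3, a stress-inducible survival gene, went the other way. It had 14647 and 14786 units with siRNA 3488, 13022 and 13782 with siRNA 2600, against 11676, 11993 and 11646 in the controls. Both siRNAs lay above the controls and did not overlap each other. Its log2 rise with siRNA 3488 against the control was 0.32 ± 0.06 (limma adjusted p = 0.00755), and its difference between the siRNAs, 0.14, was not called.

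The probe sets of Ier5 disagreed. The brightest had 1862 and 1903 units with siRNA 3488, 1770 and 1727 with siRNA 2600, against 1787, 1732 and 1644 in the controls, and was not called. A dim one had 13.4 and 68.9 with siRNA 3488, against 154 and 120 with siRNA 2600 and 129, 116 and 104 in the controls. It was called lower with siRNA 3488 than with the control, at -1.93 ± 0.54 (limma adjusted p = 0.0387). That value rests mostly on array 1 and was -0.75 without it. The 2 siRNA 3488 signals lay under and just above the filter level of 68.2. This probe set thus passed the filter through the siRNA 2600 and control arrays. Its call was lost in 9 of 16 alternatives, among them quantile normalization, cyclic loess and no filter. The remaining survival and early genes, the anti-proliferative Btg1, the kinase gene Sgk1 and the cytoskeletal gene Arc, had differences between the siRNAs of 0.03, -0.08 and -0.15, none called.

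The phosphatase and Sprouty genes form the feedback arm, since DUSP proteins dephosphorylate MAP kinases and Sprouty proteins damp receptor signalling to ERK. Dusp5, an ERK phosphatase of the nucleus, had 2074 and 1307 units with siRNA 3488, against 3096 and 2630 with siRNA 2600 and 2133, 1979 and 2026 in the controls. Its siRNA 2600 arrays were above every other array, and siRNA 3488 array 1 was within the controls. The log2 difference between the siRNAs was -0.79 ± 0.17 (limma adjusted p = 0.0303), and was -0.46 and not called without siRNA 3488 array 2.

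Dusp1 encodes MKP-1, which acts on the p38, JNK and ERK kinases, and its 2 probe sets were called in opposite directions. The brighter had 17196 and 15792 units with siRNA 3488, against 12407 and 13799 with siRNA 2600 and 11512, 11694 and 12270 in the controls. The dimmer had 2171 and 1839 with siRNA 3488, against 2709 and 2836 with siRNA 2600 and 2764, 2801 and 2552 in the controls. In both cases siRNA 3488 stood clear of the other 5 arrays, above them on 1 probe set and below them on the other. The differences between the siRNAs were 0.33 ± 0.08 (limma adjusted p = 0.0365) and -0.47 ± 0.09 (adjusted p = 0.0203), so these arrays give no single direction for Dusp1.

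Dusp6, an ERK phosphatase of the cytoplasm, had 3 tested probe sets, none called in the main fits. Their log2 changes against the control were 0.09, 0.46 and 0.60 with siRNA 3488 and 0.35, 0.58 and 0.50 with siRNA 2600. Under median centring Dusp6 was called higher with each siRNA. With the arrays of the compared groups alone it was called with siRNA 3488. It was not called with quantile normalization or cyclic loess. Dusp4 and the Sprouty genes were not called. Their differences between the siRNAs were 0.01 for Dusp4, -0.31 for Spry1, -0.14 for Spry2 and 0.30 for Spry4, and that of Spry2 had a 95% interval from -0.30 to 0.02.

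**Figure D3:**
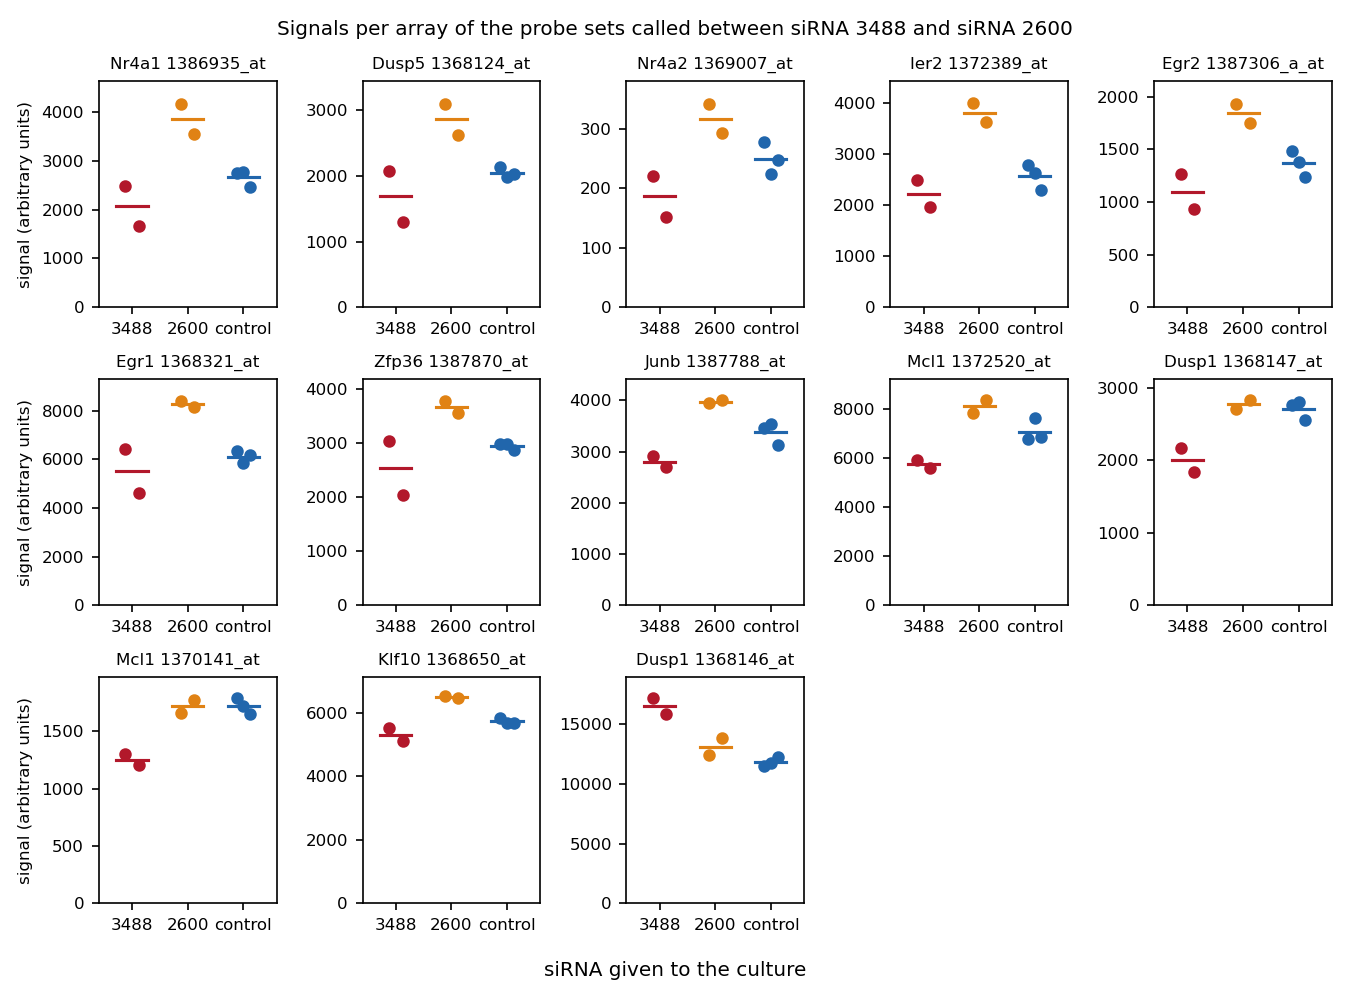
Signals on each of the 7 arrays (y axis, arbitrary units, starting at 0) for the 13 probe sets called between siRNA 3488 and siRNA 2600, with siRNA 3488, siRNA 2600 and the scrambled control from left to right. Each point is 1 culture and each bar a group mean. For 12 probe sets both siRNA 3488 points lie under both siRNA 2600 points, and for the brighter Dusp1 probe set above them.

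How far the 2 siRNA 3488 cultures agreed bears on all of these values. Array 2 was below array 1 for all 12 probe sets called lower between the siRNAs and for 46 of the 57 tested members, against 51.7% of all tested probe sets. For 6 of the 12, array 1 was at or above the lowest control. Without siRNA 3488 array 2, 1 member was called between the siRNAs, the dim Ier5 probe set, and none of the 13. Without siRNA 2600 array 1 there was also 1 call, and without any 1 control 7 or 8. With the 4 arrays of the 2 siRNAs fitted alone, 0 members were called by limma, with 21 at an unadjusted p under 0.05, and with no intensity trend 0 were called, with 23. The 12 lower differences kept their sign under each of these settings. Shares of all tested probe sets are not given beside these counts.

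Against the control, siRNA 3488 gave 7 called member probe sets, or 12.3%, against 15.6% of all tested. The list was thus called no more often than the array as a whole in that comparison. Higher were the brighter Dusp1 probe set and Ier3 (2, or 3.51%, against 6.89% of all). Lower were Junb, both Mcl1 probe sets, the dimmer Dusp1 probe set and the dim Ier5 probe set (5, or 8.77%, against 8.74%). The median log2 change of the 37 genes was -0.17, against -0.02 for all genes tested. The split of calls moved with the scaling, to 0 higher and 7 lower with quantile normalization, 0 and 6 with cyclic loess and 4 and 3 with median centring. The calls also moved when 1 siRNA 3488 array was left out, a fit that leaves 1 array in that group. Shares of all tested probe sets under these alternatives are not given. Such counts do not tell a change in the members from a change over the whole array.

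Against the control, siRNA 2600 gave 1 call, Ier2 (1.75%, against 1.03% of all tested), with 15 members at an unadjusted p under 0.05 (26.3%, against 15.2%). The median log2 change of the 37 genes was 0.18, against 0.01 for all genes. Ier2 lost its call without either siRNA 2600 array and without any 1 control, with log2 changes of 0.49 to 0.64.

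Both siRNAs combined against the control gave 0 called members by limma (0%, against 0.145% of all tested), with 8 at an unadjusted p under 0.05 (14%, against 17.8%). The 4 siRNA arrays and the 3 controls did not overlap for 7 of the 57 probe sets (12.3%, against 17.7%). The median log2 change was 0.02. No member thus passed the threshold for a departure from the control common to both siRNAs. Nr4a1, at 0.08 ± 0.25, and Junb, at -0.01 ± 0.14, are examples in which the values of the 2 siRNAs lay on opposite sides of the control. Without siRNA 2600 array 1, 4 members were called.

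**Figure D4:**
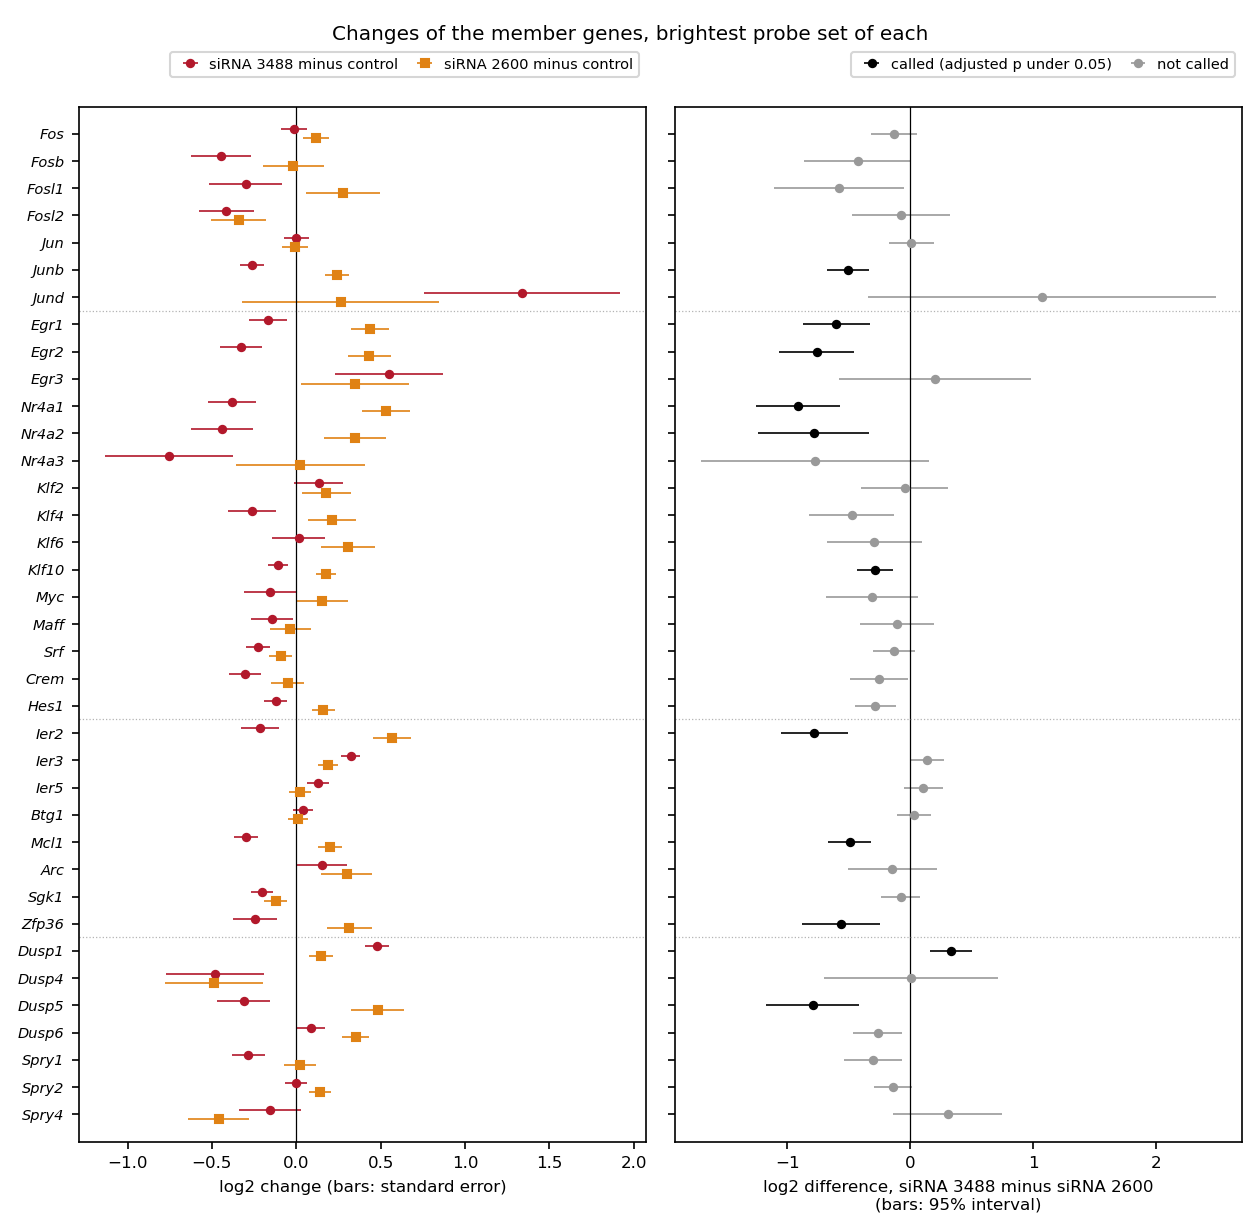
Left, log2 change of the brightest probe set of each of the 37 genes against the control, with standard errors, for siRNA 3488 (circles) and siRNA 2600 (squares), which share the controls. Right, the log2 difference between siRNA 3488 and siRNA 2600 with its 95% interval, black where called. Of the 11 genes in black, 10 lie below 0 and Dusp1 lies above it.

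The 2 members that rose with siRNA 3488 against the control lay at the top of the signal range, where nearly everything read higher on those arrays. The brighter Dusp1 probe set and Ier3 were within the brightest 0.736% and 0.805% of tested probe sets. The median log2 change of the brightest 1% (186 probe sets) with siRNA 3488 was 0.44 against the control and 0.39 against siRNA 2600, and 18 probe sets of hybridisation spikes, RNAs added to every sample, read 0.52 higher than in the controls. With siRNA 2600 these medians against the control were 0.06 and 0.03. With quantile normalization, Ier3 changed by -0.035 against the control and Dusp1 by 0.09, and the Dusp1 difference between the siRNAs was -0.00197. The 3′ to 5′ signal ratio of actin was 1.96 and 1.94 with siRNA 3488, 1.83 and 1.81 with siRNA 2600, and 1.74 to 1.79 in the controls, and its part in these results was not tested.

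The median log2 difference between the siRNAs was 0.12 over the brightest 10% of probe sets. Members called lower within it were Egr1, Mcl1, Klf10, Junb, Zfp36, Ier2 and Nr4a1. Their differences were -0.60, -0.49, -0.29, -0.50, -0.56, -0.78 and -0.91, and the choice by a lower call placed them below the median. The other members there, by brightest probe set, were Fos, Jun, Hes1, Spry2, Btg1, Ier3, Dusp1 and Jund. They had -0.13, 0.01, -0.28, -0.14, 0.03, 0.14, 0.33 and 1.07. The part of the brightness shift in these differences was not tested. With quantile normalization 12 members were called, 0 higher and 12 lower. They were 10 of the 13 called before, with Fos and Hes1, while Zfp36, Nr4a2 and the brighter Dusp1 probe set lost their calls. The share of all tested probe sets under quantile normalization is not given here.

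**Figure D5:**
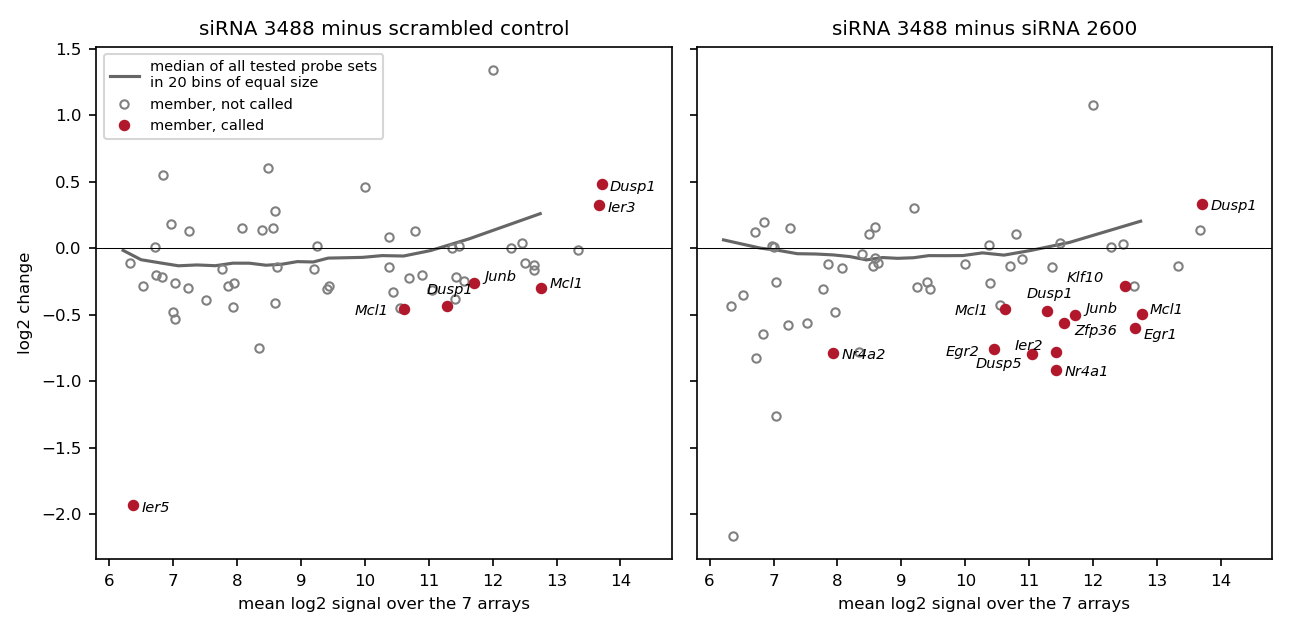
Log2 change with siRNA 3488 against the control (left) and against siRNA 2600 (right) for the 57 tested member probe sets, plotted against mean log2 signal over the 7 arrays. Filled points were called, and the line joins the medians of all 18625 tested probe sets in 20 bins. Dusp1 and Ier3 at the far right lie near the end of the rising line, and the called lower members lie under it.

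The surrounding pathway was followed in 8 further lists. Of their 98 tested genes, 24 were called with siRNA 3488 against the control (24.5%, against 16.9% of the 10019 genes tested) and 11 between siRNA 3488 and siRNA 2600 (11.2%, against 6.96%). Against the control, the 6 lists with 1 or 2 calls had 9.09% to 25% of their genes called, on both sides of the share of all genes. Among 13 tested growth factor ligands, 2 rose with siRNA 3488 against the control, Csf1 (log2 change 0.72) and Pdgfa (0.31), and 0 fell. Pdgfa and Fgf1 were higher with siRNA 3488 than with siRNA 2600, by 0.46 and 0.73. Of 11 receptors, Igf1r fell by 0.36 against the control and Fgfr1 was lower than with siRNA 2600, at -0.53. The calls for the receptors moved with the scaling, with 2 rises and 0 falls against the control under median centring and 0 calls between the siRNAs under all 3 scalings.

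In the Ras to ERK cascade, 2 of 15 tested genes fell with siRNA 3488 against the control and 0 rose. They were Rps6ka3, which encodes the ERK-activated kinase RSK2 (-0.68, and -0.49 against siRNA 2600), and Rasa1, a GTPase-activating protein that switches Ras off (-0.47, and -0.56 against siRNA 2600). The kinases of the cascade core were not among the calls. Of 8 stress MAP kinase genes, Mapkapk2, the p38 effector kinase that acts on ZFP36, rose by 0.75 and was 0.65 above siRNA 2600, and Map3k4 fell by 0.45 against the control, a call lost under median centring.

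Of 16 tested constitutive transcription factors that act on immediate early promoters, Elk3 and Mef2a fell with siRNA 3488 against the control, by 0.31 and 0.30 on the log2 scale, and neither kept its call under median centring. Of 5 further phosphatases and feedback inhibitors, Dusp7 fell by 0.41 against the control, a call that median centring also removed.

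Secondary response and SRF or AP-1 target genes held 6 rises with siRNA 3488 on the scaling as deposited. Of 16 tested, these 6 rose against the control and 0 fell, among them Ccn1 (0.88), Timp1 (0.56), Tpm1 (0.44) and Ccn2 (0.35), which encode matrix and cytoskeletal proteins. Of the 6, 4 lie within the brightest 1% of probe sets described above. With quantile normalization 1 of the 16 was called, Timp1 at 0.17, against 3 with cyclic loess and 6 with median centring, all higher. Under quantile normalization Ccn1 changed by 0.68 and Tpm1 by 0.06, neither called, while Ccn2 and Actg1 had changes of -0.04 and -0.09. With cyclic loess Ccn1 was called, at 0.73.

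Of 14 factors that bind or degrade AU-rich mRNAs, 4 rose with siRNA 3488 against the control and 4 fell (57.1% called, against 16.9% of all genes). These counts moved with the scaling, to 2 rises and 2 falls with quantile normalization, 4 and 1 with median centring and 2 and 3 with cyclic loess. Khsrp (0.95) and Elavl1 (0.78), a decay factor and a stabilising factor, were among the rises, and Cnot7 (-0.47), a deadenylase subunit, among the falls, and all 3 kept their calls and signs under these scalings. With siRNA 2600 against the control, 0 of the 98 tested genes of these 8 lists were called by limma (against 1.1% of all genes). At an unadjusted p under 0.05 there were 15 of the 98, against 15.2% of all tested probe sets. With both siRNAs together 0 were called (against 0.2%). At an unadjusted p under 0.05 there were 19 of the 98, against 17.8%. Both counts lie near those shares.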

How the data were processed

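The authors deposited linear intensity values from GCOS 1.4, according to the submitters' processing notes, with 1 value for each probe set on each array. How background, summary and scaling were set is not given in the sources used here. Groups were taken from the sample titles. Symbols came from the platform's annotation (1 symbol for 20826 probe sets, several for 436, none for 9780) and were looked up by Entrez identifier on GRCr8 (20758 found, 0 changed). No gene was named from a probe set with several symbols. Different probe sets of a gene were kept apart, and the brightest by mean log2 signal stood for the gene in counts of genes.

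A floor of 1 was set on the deposited signals before log2. After 57 control probe sets were left out, the upper 60% by mean log2 signal (6.09 or more, a signal of 68.2) were tested with limma 3.58.1 in R 4.3.3 (lmFit, eBayes with an intensity trend, Benjamini-Hochberg adjustment). A fit of 3 groups over all 7 arrays, with 1 shared estimate of the spread, gave each siRNA against the control and the 2 siRNAs against each other. Pooling both siRNAs into 1 group used a second fit, of 2 groups. With 2 or 3 arrays a group, their number limits the precision. On simulated data the fit recovered 30%, 58%, 82% and 90% of probe sets changed 1.5, 2, 3 and 4-fold between the siRNAs, with 0 of the wrong sign and 5 unchanged probe sets called. The simulated noise was independent for each probe set, with no shift by brightness and no array low for many genes. These rates therefore need not hold for the real arrays.

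The members and the gene lists were chosen with earlier results of these data known. Members called in any comparison are described on every array, the others by range and counts. Of each other list the 4 called genes with the lowest adjusted p could be named. Fgfr1, Igf1r, Dusp7 and the other single calls fall under this rule, and Actg1 was named after its values were seen. Alternatives covered normalization, filter, offset, trend, block, arrays in the fit, probe sets per gene and each array left out. Counts of members under an alternative are given without the matching share of all tested probe sets, except where that is stated. Without that share, such a count does not tell a change in the members from a change over the whole array.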

Additional observations from a re-analysis of the deposited data

Results flagged for a closer look

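For 13 member probe sets the effects of the 2 siRNAs against the same controls differed by the limma test of the difference itself. The log2 differences, siRNA 3488 minus siRNA 2600, were -0.91 for Nr4a1 (adjusted p = 0.0145), -0.79 for Dusp5 (0.0303), -0.79 for Nr4a2 (0.0489), -0.78 for Ier2 (0.0121), -0.76 for Egr2 (0.0172), -0.60 for Egr1 (0.0255) and -0.56 for Zfp36 (0.0474). They were -0.50 for Junb (0.0115), -0.49 and -0.46 for the brighter and dimmer Mcl1 probe sets (0.0121 and 0.016), -0.47 for the dimmer Dusp1 probe set (0.0203) and -0.29 for Klf10 (0.0344). The brighter Dusp1 probe set had a difference of 0.33 (0.0365). Groups of 2 and 3 arrays are too small for a test of single outlying arrays, so the low values of siRNA 3488 array 2 were given as values only.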

How the results depend on the processing

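Over the alternatives tried for the 21 single calls, 249 of 371 values kept their direction and call, 120 kept their direction but lost the call and 2 turned round. Both were at the top of the signal range under quantile normalization, Ier3 with siRNA 3488 against the control (-0.035) and the brighter Dusp1 probe set between the siRNAs (-0.00197). Members called with siRNA 3488 against the control numbered 7, and 2 with no intensity trend, 12 with the arrays of the compared groups alone and 3 to 15 with an array left out. With siRNA 2600 against the control there was 1, and 3 with median centring, 0 with cyclic loess, 0 with no filter, 0 with no intensity trend, 4 with the arrays of the compared groups alone and 0 to 4 with an array left out. Between the siRNAs there were 13, and 7 with no filter, 0 with no intensity trend (5 of all tested probe sets were then called), 0 with the arrays of the compared groups alone (29 of all) and 1 to 15 with an array left out. With both siRNAs there were 0, and 2 (Dusp1 and Ier3) with the mean of the 2 effects in the fit of 3 groups and 0 to 4 with an array left out. Unadjusted p under 0.05 was met by 10 to 21 members with siRNA 2600 and by 16 to 29 between the siRNAs over all settings.

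The labels give the cultures replicate numbers but no shared batch. Deviations from the group means correlated at 0.143, 0.0663, 0.019, 0.163 and -0.0483 between same-numbered arrays. Between arrays of unlike number the values were -0.191 to 0.191. With 2 arrays per siRNA the deviations of a group mirror each other. These values are therefore not independent and do not decide whether the numbers pair the arrays. As no shared batch is named, the numbers were not taken as pairs. With the replicate number as a block, 12 members were called with siRNA 3488, 1 with siRNA 2600, 14 between the siRNAs (all 13 among them) and 0 with both. Of 120 counts for the other lists and the markers under 3 scalings, an alternative chosen after seeing the data, 96 stayed within 1.5 times. A count of 0 that stayed at 0 was taken as unchanged. All counts with siRNA 2600 against the control and with both siRNAs started from 0. The 96 thus give little information on the lists that held calls. With 2 arrays per siRNA the calls between the siRNAs lean on the spread shared with the controls, and on siRNA 3488 array 2 and siRNA 2600 array 1.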
